A study of Tupaia belangeri chinensis with 36 samples.

Results

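The intermediate zone (IZ) and the cortical plate of the fetal Chinese tree shrew (Tupaia belangeri chinensis) were compared at embryonic day 37 (E37). The IZ is the fibre-rich layer below the cortical plate. Newborn neurons cross it on their way outward, axons run through it, and progenitors of glia spread within it. The cortical plate is where migrating neurons stop and differentiate, with later-born neurons settling farther out. Many long noncoding RNAs of the cortex lie beside or opposite genes that specify neurons and glia, and are known to be low in abundance and restricted to few cell types.

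The 8 libraries carrying an E37 label of either layer were taken, out of 36 in the series. There were 3 of the IZ, 1 of the undivided plate (CP), 2 of the inner plate (CPi) and 2 of the outer plate (CPo). The 5 plate libraries formed 1 side of the comparison and were weighted alike. The CP, CPi and CPo were fitted as separate groups, and the differences from each were averaged on the log2 scale. A log2 fold change is thus not the ratio of the mean levels. For a rare feature with no count in 1 division of the plate, it can be much larger than that ratio. All came from normal fetal cortex cut from Nissl-stained frozen sections by laser microdissection, with no treatment or genetic change named in the labels, and polyadenylated RNA was sequenced. The study's reporting summary speaks of biological replicates for its experiments in general, but no source used here ties the numbered libraries to separate fetuses. The p-values of features thus measure the spread between libraries of the same stage and layer, pooled over the 35 libraries of the main fit. None of the 36 libraries is an E37 library of the ventricular or subventricular zones. The paper took its E37 values of these zones from public data and earlier studies. The deposited values were read counts on 76871 annotated features. Of these, 21043 carried a plain TSDBGID identifier with no gene name, 31776 were named as intergenic transcripts with a gene symbol (such as LINC-SOX10-1) and 22595 as transcripts antisense to a gene (such as OLIG2-AS-1). The symbol in a LINC name does not give the distance to that gene. An AS feature overlaps its host gene, and the strand setting of the counting is not given in the sources used here, so reads of a gene and of its antisense partner cannot be told apart. Between 15.0% and 17.0% of the lines counted in these 8 libraries were ambiguous between features. Protein-coding genes carry no names in these files, so the labelled layers could be checked only through noncoding features named after marker genes.

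The IZ libraries held 20202632 to 22727813 counts on features and the plate libraries 24977639 to 31756620, so that every IZ library was shallower than every plate library. IZ replicate 1 had 22.0% of its lines not aligned, against 12.4% to 15.1% in the other 7. No share of lines or counts by class passed an exact two-sided permutation test over the 8 libraries after adjustment over 9 shares. The share of counts on AS features was 0.955% ± 0.0497 (SD, n = 3) in the IZ and 0.859% ± 0.0297 (SD, n = 5) in the plate. The groups did not overlap, and the exact permutation p of 0.0179 was the smallest that these numbers allow (adjusted p = 0.107). Features named after Cajal-Retzius genes, which mark the marginal zone (MZ), summed to 6.65 to 9.11 CPM (counts scaled to a common library total) in the IZ, 4.82 to 8.70 CPM in the plate and 40.4 to 77.9 CPM in the 2 E37 MZ libraries. The library totals behind CPM were scaled by TMM, a normalization factor computed across all libraries.

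Of the 26858 features with enough counts to test, 1033 (3.85%) differed between IZ and plate at an adjusted p under 0.05. Higher values in the IZ were found for 698 (2.6%) and lower values for 335 (1.25%). With the size factors of DESeq2 in place of TMM the split was 791 to 180, so that 81.5% of the calls were higher in the IZ instead of 67.6%. With the replicate number as a block there were 786 higher and 559 lower. The lower calls were the less stable ones. They numbered 75 without IZ replicate 3, 120 without IZ replicate 1, 203 without IZ replicate 2, 213 without CPo replicate 2 and 221 without CPo replicate 3, while the higher calls stayed between 472 and 772 when any 1 library was left out.

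The features higher in the IZ were less abundant than those lower in the IZ, and their differences were larger. The median log2 fold change (IZ minus plate) of the higher features was 1.72 at a median level of 4.08 CPM over the 8 libraries. For the lower features it was −0.67 at 103 CPM. A difference of over 1 log2 unit was found for 574 of the 698 and for 87 of the 335. A rare feature needs a larger difference to be called than an abundant one, so this may follow in part from the threshold. All tested features had a median difference of 0.03 and a median level of 0.680 CPM. Because a bulk library averages its cells, fewer cells of a type and less RNA per cell cannot be told apart in any of these values.

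**Figure D1:**
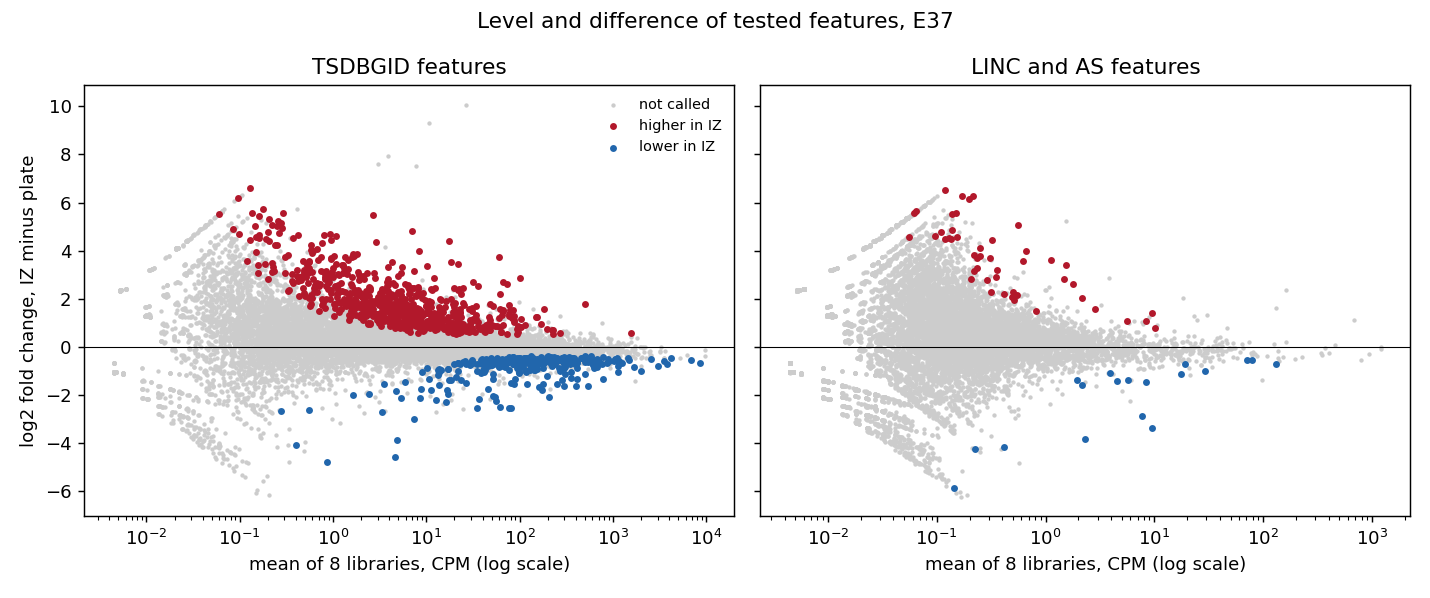
Log2 fold change (IZ minus plate) of each tested feature with a count in the 8 libraries, against its mean level in CPM on a log scale, for TSDBGID features (left) and LINC and AS features (right). Red points were called higher and blue points lower in the IZ at an adjusted p under 0.05, and the 66 called LINC and AS features form 0.609% of those tested.

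Unnamed TSDBGID features made up most of the calls, with 966 (6.07%) of 15911 tested, of which 650 were higher (4.09%) and 316 lower (1.99%). TSDBGID.23730 measured 16.3, 8.64 and 27.3 CPM in IZ replicates 1, 2 and 3. Its plate libraries lay between 0.179 and 1.94 CPM, so the groups were far apart (log2 fold change 4.83 ± 0.41 SE, adjusted p = 2.39e-08). TSDBGID.16085 measured 110 to 148 CPM in the IZ, against 37.7 CPM in the CP, 30.1 and 11.3 in the CPi and 2.87 and 2.07 in the CPo. This feature thus fell steeply across the plate libraries, and its difference from the plate was 3.72 ± 0.61 (SE, adjusted p = 0.00142). It was not called when the CP, CPi and CPo were fitted as 1 group (adjusted p = 0.157). In the other direction, TSDBGID.4291 measured 16.5 to 22.0 CPM in the IZ and 59.3 to 176 CPM in the plate (−2.56 ± 0.25 SE, adjusted p = 3.75e-07). TSDBGID.21781 measured 1.02 to 1.77 CPM in the IZ and 6.55 to 15.1 CPM in the plate (−2.99 ± 0.60 SE, adjusted p = 0.00514).

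Among the LINC and AS features, 48 of 10836 were higher in the IZ (0.443%) and 18 lower (0.166%). By kind, 32 LINC features (0.816%) were called, 25 higher (0.637%) and 7 lower (0.178%), and 34 AS features (0.492%), 23 higher (0.333%) and 11 lower (0.159%). The higher ones were rare transcripts. Of the 48, 38 had a mean under 1 CPM and 12 had 3 counts or fewer in all plate libraries together, and the IZ and plate values did not overlap for 31. Their median log2 fold change was 3.64, or 3.49 with the 3 features that had no plate count placed at the bound that 3 counts over the plate allow. Over all LINC and AS features tested, the median was 0.25. The 18 lower features had a median of −1.40 at 6.64 CPM, and 17 of them did not overlap. Non-overlapping values were found for 2.26% (IZ above) and 1.76% (IZ below) of all LINC and AS features tested, and for 4.69% and 5.95% of all features tested. Within replicate numbers, the IZ library lay above the mean of its plate libraries in 3 of 3 numbers for 46 of the 48, and below it in 3 of 3 numbers for 18 of the 18. These features were called from the same libraries, so this agreement follows largely from the choice and is not independent evidence. The share over all tested features was not computed.

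Of 11 tested features named after genes of the oligodendrocyte lineage, 3 were called higher in the IZ and 0 lower, beside 0.443% and 0.166% of all LINC and AS features. SOX10, OLIG2 and NKX2-2 are transcription factors that specify and maintain oligodendrocyte progenitors, the cells that later myelinate axons. The median log2 fold change over the list was 3.74. The summed level of the list was 2.87 to 3.82 CPM in the IZ and 0.0449 to 1.18 CPM in the plate. In the E37 MZ it was 0.945 to 4.51 CPM, which overlapped the IZ.

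LINC-SOX10-1 measured 1.07, 2.56 and 0.778 CPM in IZ replicates 1, 2 and 3. In the plate it measured 0.0715 CPM in the CP, 0.432 and 0.381 in the CPi and 0 and 0.0357 in the CPo. Every IZ library was above every plate library, and the CPi lay between the IZ and the CPo (3.99 ± 0.63 SE, adjusted p = 0.000221). OLIG2-AS-1 measured 1.17, 0.168 and 0.778 CPM in the IZ. The plate libraries held 0.0715 CPM in the CP, 0.216 and 0.152 in the CPi and 0 in both CPo libraries, so IZ replicate 2 fell within the range of the plate (4.46 ± 1.11 SE, adjusted p = 0.0198). The log2 difference of OLIG2-AS-1 was 7.62 from the CPo, which had no count, and 1.91 from the CPi. NKX2-2-AS-1 measured 0.244, 0.0839 and 0.605 CPM in the IZ and 0 to 0.0715 CPM in the plate, from 21 counts in the IZ and 3 in the plate. These counts gave a ratio of 13.7 with an exact 95% interval of 4.09 to 71.8 that covers counting error only (adjusted p = 0.0208). SOX10-AS-1, at a mean of 0.220 CPM in the IZ and 0.0148 CPM in the plate, did not overlap between the groups but missed the threshold (adjusted p = 0.11). LINC-SOX10-1 was called in 16 of 16 alternatives. OLIG2-AS-1 was not called without IZ replicate 1 or 3 or CPo replicate 2 or 3 (adjusted p = 0.103, 0.0609, 0.0721 and 0.0831), nor NKX2-2-AS-1 without IZ replicate 3 or CPo replicate 2 or 3 (adjusted p = 0.186, 0.0571 and 0.0655). Neither was called with only the E37 libraries (0.0968 and 0.128) or with the plate as 1 group (adjusted p = 0.106 and 0.0604).

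Features named after radial glial genes came next. Radial glia are the neural stem cells of the developing cortex. Of 81 tested features, 4 were higher and 0 lower, beside 0.443% and 0.166% of all LINC and AS features, with a median of 0.46. At an unadjusted p under 0.05, 14 were higher and 2 lower (LINC-EMX2-1 and SLC1A3-AS-1), beside 9.36% of all LINC and AS features in either direction. The 81 features summed to 16.7 to 20.8 CPM in the IZ, 11.3 to 13.8 CPM in the plate and 28.2 to 28.5 CPM in the MZ. The 4 carry the names of SOX1, a transcription factor of neural progenitors, of SOX9, a regulator of neural stem cells and astrocytes, and of HES1, a repressor that acts downstream of Notch.

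LINC-SOX1-1 was the steadiest of them. It measured 0.926, 0.965 and 1.08 CPM in the IZ and 0.143, 0.216, 0.0897, 0.381 and 0.214 CPM in CP 1, CPi 2, CPo 2, CPi 3 and CPo 3 (2.30 ± 0.44 SE, adjusted p = 0.00144). LINC-SOX1-7 measured 0.292 to 0.734 CPM in the IZ, 0 in the CP, 0.396 and 0.229 CPM in the CPi and 0.0897 and 0.0715 CPM in the CPo. The CPi values overlapped the IZ (2.77 ± 0.66 SE, adjusted p = 0.0114), and the feature was not called without IZ replicate 3 or CP replicate 1 (adjusted p = 0.0934 and 0.129). Its log2 difference was 7.17 from the CP, which had no count, but 0.70 from the CPi and 2.63 from the CPo. LINC-SOX9-15 measured 0.536, 1.26 and 0.605 CPM in the IZ and 0 to 0.360 CPM in the plate (2.20 ± 0.56 SE, adjusted p = 0.0195), and was not called without IZ replicate 2 or CPo replicate 2 (adjusted p = 0.159 and 0.0619). LINC-HES1-15 held 30 counts in the IZ and 1 in the plate, a ratio of 58.8 with an interval of 9.77 to 2398 (adjusted p = 0.0108, and 0.0507 without IZ replicate 3). Of the cell cycle list, 1 of 50 features was called, beside 0.609% of all LINC and AS features, so this single call is not read as a result about the list. At an unadjusted p under 0.05, 7 were higher and 1 lower. CCNB1-AS-1, antisense to the mitotic cyclin B1, measured 1.22, 0.713 and 0.821 CPM in the IZ. The CP library came close at 0.643 CPM, while the CPi and CPo libraries lay between 0.108 and 0.229 CPM (1.94 ± 0.34 SE, adjusted p = 0.000615). With only the E37 libraries, adjusted p was 0.0649 for CCNB1-AS-1, 0.0803 for LINC-HES1-15, 0.108 for LINC-SOX1-7 and 0.204 for LINC-SOX9-15, and CCNB1-AS-1 was not called when the doubted VZ library described next was included (adjusted p = 0.0666). LINC-SOX1-7 was not called with the plate as 1 group either (adjusted p = 0.174), while LINC-SOX1-1 was called in 16 of 16 alternatives.

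Most of these stem cell and cell cycle features measured higher in the ventricular zone (VZ), the layer where radial glia divide. Replicate 2 of the 2 VZ libraries of E28 has the same counts as a library labelled VZ of E42, so its stage is in doubt. The 2 libraries averaged 19.0 CPM of LINC-SOX1-1, 9.89 of LINC-SOX9-15 and 71.0 of CCNB1-AS-1. The 3 E37 IZ libraries averaged 0.990, 0.800 and 0.917 CPM. LINC-HES1-15, at 0.0726 CPM in the VZ and 0.446 CPM in the IZ, had the opposite order, as did LINC-SOX10-1 and OLIG2-AS-1 with 0 and 0.246 CPM in the VZ of E28 and 1.47 and 0.705 CPM in the IZ of E37. No test was made between these groups, which differ in stage as well as layer. In the outer subventricular zone of E28, LINC-SOX1-1, LINC-SOX1-7, LINC-SOX9-15 and CCNB1-AS-1 averaged 2.12, 1.06, 3.36 and 10.0 CPM. The IZ of E28 averaged 0.713, 0.791, 0.478 and 2.70 CPM. LINC-HES1-15 had the opposite order, at 0.0138 and 0.132 CPM. These 2 layers are adjacent, and the paper filtered its IZ genes by genes of the outer subventricular zone. No such filter or test was used here.

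**Figure D2:**
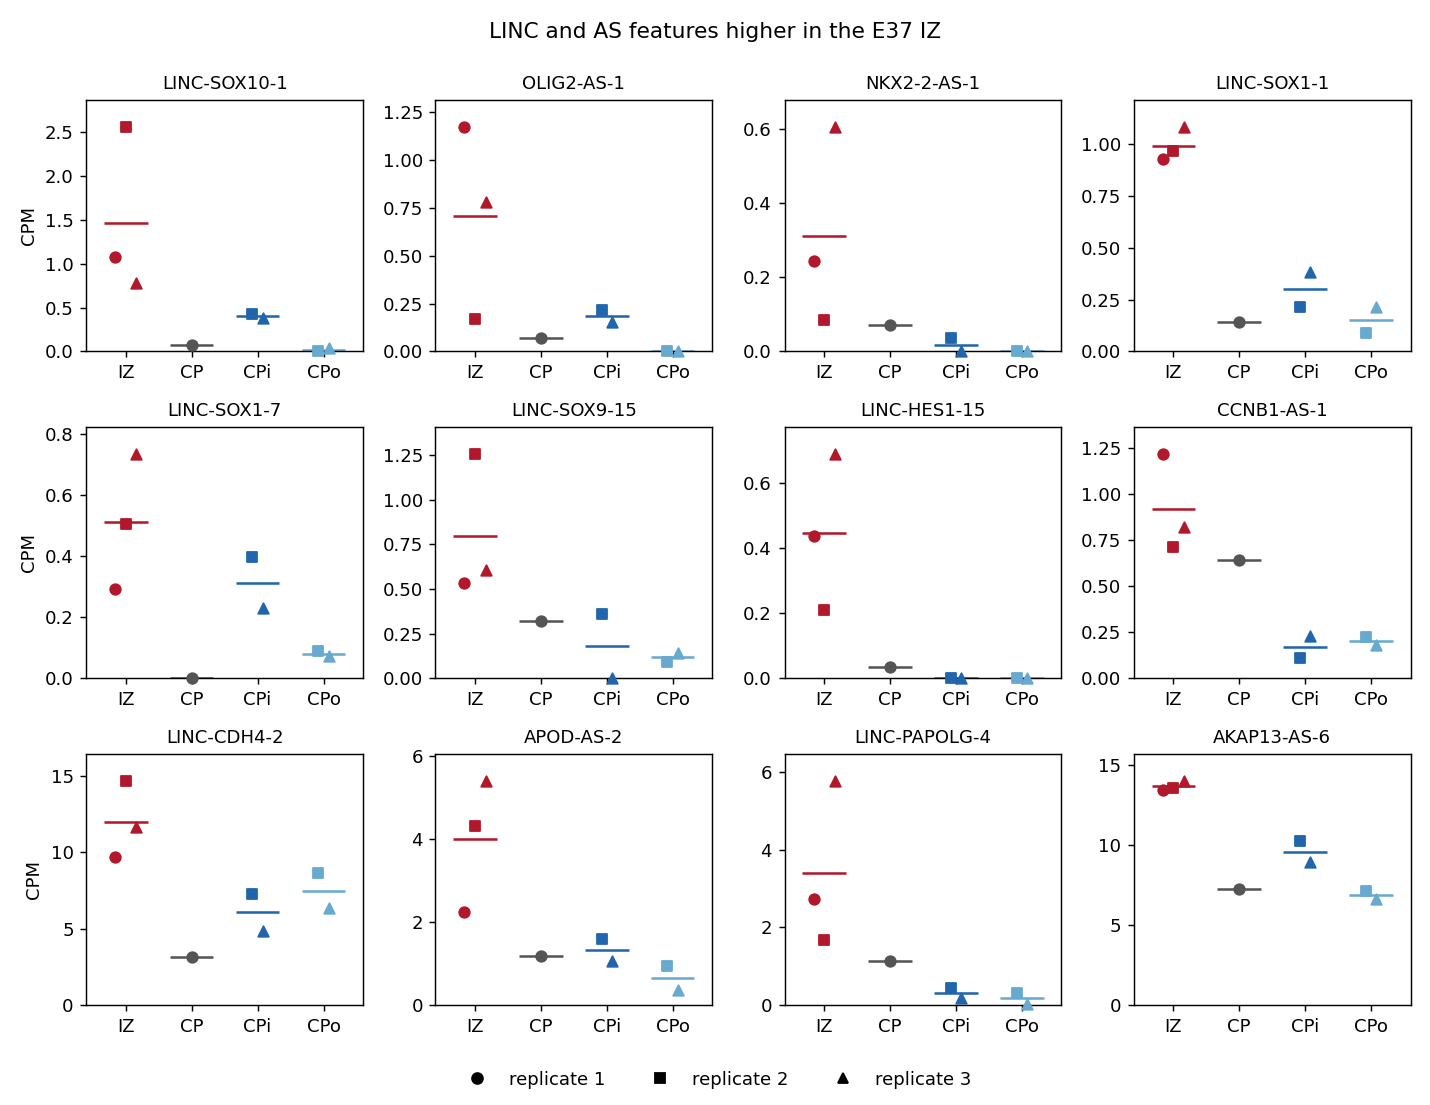
Level in CPM of 12 LINC and AS features called higher in the IZ, by layer (IZ, CP, CPi, CPo) at E37. Each point is a library, its shape gives the replicate number and the bar is the layer's mean. LINC-SOX10-1 lay at 0.778 CPM or more in the IZ and at 0.432 CPM or less in the plate.

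LINC-CDH4-2, named after R-cadherin, an adhesion molecule of neurons and axons, measured 9.65, 14.7 and 11.7 CPM in the IZ. The plate held 3.15 CPM in the CP, 7.27 and 4.84 in the CPi and 8.61 and 6.36 in the CPo, all below the IZ (1.05 ± 0.24 SE, adjusted p = 0.00819). It was not called without IZ replicate 2 or CP replicate 1 (adjusted p = 0.0682 and 0.07). APOD-AS-2, antisense to apolipoprotein D, a lipid carrier of glia, measured 2.24, 4.32 and 5.40 CPM in the IZ and 0.357 to 1.58 CPM in the plate (2.04 ± 0.49 SE, adjusted p = 0.0133). It was not called without IZ replicate 3 or CPo replicate 3, or with only the E37 libraries (adjusted p = 0.0999, 0.0633 and 0.0515). AKAP13-AS-6, antisense to an anchoring protein, measured 13.4, 13.5 and 14.0 CPM in the IZ. This was the tightest group of values, above the 6.61 to 10.2 CPM of the plate (0.79 ± 0.20 SE, adjusted p = 0.018, and 0.0611 and 0.0632 without IZ replicate 3 or CPo replicate 3).

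LINC-PAPOLG-4, named after a poly(A) polymerase, measured 2.73, 1.68 and 5.79 CPM in the IZ, 1.14 CPM in the CP and 0.0357 to 0.432 CPM in the CPi and CPo (3.41 ± 0.63 SE, adjusted p = 0.000993). It was called in 16 of 16 alternatives. LINC-LCA5-3, named after a protein of cilia, measured 4.19 to 6.00 CPM in the IZ and 0.572 to 2.65 CPM in the plate (1.58 ± 0.44 SE, adjusted p = 0.0399), and lost its call when any 1 of the 3 IZ libraries, CPi replicate 3 or CPo replicate 3 was left out (adjusted p 0.0652 to 0.141), and with the 8 libraries thinned to 1 depth, an alternative chosen after seeing the data (adjusted p = 0.0573). LINC-LCA5-3 was also not called with the doubted VZ library included (adjusted p = 0.203) or with the plate as 1 group (adjusted p = 0.0554). LINC-HIS-71-7 measured 4.68, 2.1 and 1.64 CPM in the IZ and 0 to 1.32 CPM in the plate (2.83 ± 0.59 SE, adjusted p = 0.00326). Its name is that of a histone H3 gene, and since histone copies are nearly identical its reads may be shared, so this feature is uncertain. It was not called with the CP, CPi and CPo as 1 group (adjusted p = 0.287).

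A few further features outside the rule for named features are given because they complete a locus or are abundant, and were chosen after their values were seen. Both called features named after ZEB1, a repressor of epithelial genes that is active in neural progenitors, were higher in the IZ, LINC-ZEB1-2 by 4.11 ± 0.93 (SE, adjusted p = 0.00763) and LINC-ZEB1-1 by 1.47 ± 0.42 (SE, adjusted p = 0.0429) on the log2 scale. LINC-ZEB1-1 overlapped the plate in IZ replicate 1, at 0.536 CPM, and lost its call without any 1 of IZ replicates 2 and 3, CP replicate 1, CPo replicates 2 and 3 and CPi replicate 3 (adjusted p 0.0507 to 0.298). LINC-ZEB1-2 lost it without IZ replicate 1 and with the plate as 1 group (adjusted p = 0.0514 and 0.0771). With only the E37 libraries neither was called (adjusted p = 0.191 for LINC-ZEB1-1 and 0.0505 for LINC-ZEB1-2), nor was LINC-ZEB1-1 with the doubted VZ library (adjusted p = 0.055). BACE2-AS-1, antisense to an aspartyl protease, measured 18.9, 15.7 and 10.8 CPM in the IZ. The CPi was split at 12.7 and 4.04 CPM, and replicate 2 of it lay within the IZ range (1.42 ± 0.31 SE, adjusted p = 0.00669). It was not called without CPo replicate 3 (adjusted p = 0.0535) or with the plate as 1 group (adjusted p = 0.141). LINC-AOX2-1 measured 1.07, 2.6 and 0.518 CPM in the IZ and 0 to 0.143 CPM in the plate (5.05 ± 0.89 SE, adjusted p = 0.000959).

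The features lower in the IZ included a locus with both kinds of transcript. AAGAB encodes a protein that helps to assemble clathrin adaptors. LINC-AAGAB-1 measured 1.17, 0.839 and 1.94 CPM in the IZ, and 21.4 CPM in the CP, 6.76 and 12.5 in the CPi and 13.7 and 18.0 in the CPo. No IZ library came near the plate (−3.38 ± 0.53 SE, adjusted p = 0.000221). AAGAB-AS-1 measured 0.487, 2.6 and 1.08 CPM in the IZ and 14.6, 3.89, 14.5, 7.36 and 16.3 CPM in CP 1, CPi 2, CPo 2, CPi 3 and CPo 3, with the CPi libraries lowest in the plate (−2.86 ± 0.38 SE, adjusted p = 1.96e-05). LINC-STT3B-54, named after a subunit of the complex that attaches sugars to proteins, measured 0.0487, 0.210 and 0.389 CPM in the IZ and 1.11 to 5.26 CPM in the plate (−3.82 ± 0.77 SE, adjusted p = 0.00275). LINC-AAGAB-1, AAGAB-AS-1 and LINC-STT3B-54 were called in 16 of 16 alternatives. AAGAB-AS-1 is outside the rule and was chosen after its values were seen.

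Of 94 tested features named after genes of synaptic adhesion and vesicle release, 2 were higher and 1 lower, beside 0.609% called in either direction among all LINC and AS features. SLITRK3 is an adhesion molecule of inhibitory synapses. SLITRK3-AS-1 measured 2.48, 5.66 and 3.59 CPM in the IZ and 9.01, 9.97, 12.0, 8.62 and 15.7 CPM in CP 1, CPi 2, CPo 2, CPi 3 and CPo 3 (−1.47 ± 0.30 SE, adjusted p = 0.00271), and was called in 16 of 16 alternatives. MAGI1-AS-3, antisense to a scaffold of cell junctions, went the other way at 0.390, 0.671 and 0.562 CPM in the IZ and 0 to 0.108 CPM in the plate (3.30 ± 0.78 SE, adjusted p = 0.0114, and 0.0653 with only the E37 libraries). CNTNAP5-AS-2 was also higher in the IZ (4.58 ± 1.16 SE, adjusted p = 0.021), from 23 and 6 counts. The call was lost without IZ replicate 2, CP replicate 1, CPo replicate 2 or CPo replicate 3 (adjusted p 0.0649 to 0.123), with the plate as 1 group (adjusted p = 0.141) and with only the E37 libraries (adjusted p = 0.121).

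Other named features were lower in the IZ. ADD2-AS-2, antisense to a protein that joins spectrin to actin, was the most abundant of those named, at 88.7, 91.2 and 98.7 CPM in the IZ and 128 to 176 CPM in the plate (−0.72 ± 0.14 SE, adjusted p = 0.00193). It was called in 16 of 16 alternatives. LINC-PRMT8-1, named after a neuronal arginine methyltransferase, measured 1.43 to 4.03 CPM in the IZ and 5.83 to 9.19 CPM in the plate (−1.39 ± 0.39 SE, adjusted p = 0.0365). SLC40A1-AS-2, antisense to the iron exporter ferroportin, measured 0.633 to 1.17 CPM in the IZ and 1.5 to 4.07 CPM in the plate (−1.39 ± 0.40 SE, adjusted p = 0.0425). AKAP12-AS-2, antisense to an anchoring protein, measured 9.14 to 11.3 CPM in the IZ and 15.0 to 27.3 CPM in the plate (−1.13 ± 0.29 SE, adjusted p = 0.0199). LINC-C4ORF32-2 measured 12.2 to 15.0 CPM in the IZ and 19.1 to 27.9 CPM in the plate (−0.72 ± 0.18 SE, adjusted p = 0.0186). The differences of LINC-FUT8-2, ZBTB34-AS-1 and SELENOI-AS-2 were −1.10, −1.0 and −0.54 (adjusted p = 0.0455, 0.0339 and 0.0265). Apart from ADD2-AS-2, each feature of this group lost its call when IZ replicate 3 was left out, with adjusted p from 0.0618 to 0.316, while its difference stayed negative in all 16 alternatives. Leaving out IZ replicate 1 ended every one of these calls (adjusted p 0.0897 to 0.209), and leaving out IZ replicate 2 every one but that of LINC-PRMT8-1 (adjusted p 0.0527 to 0.121). Single plate libraries also ended the call of each but AKAP12-AS-2, with adjusted p from 0.0501 to 0.132. Each of the group other than ADD2-AS-2 also lost its call under at least 1 change of libraries, filter, scaling, grouping or depth (adjusted p 0.0501 to 0.228).

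**Figure D3:**
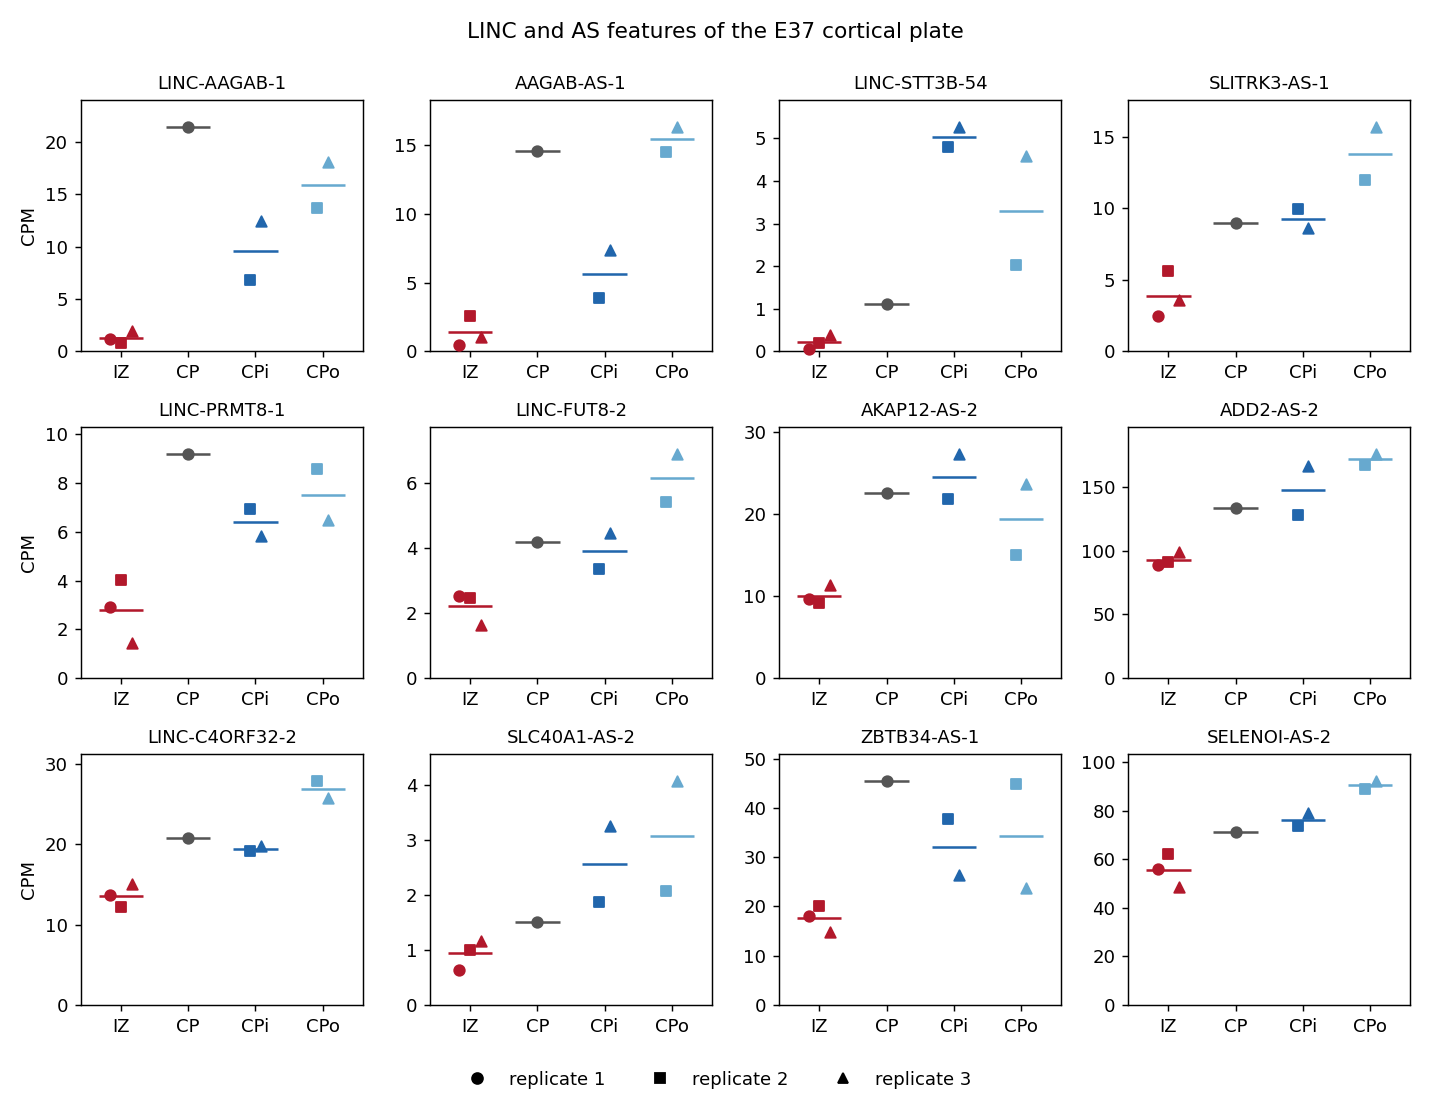
Level in CPM of 12 LINC and AS features by layer (IZ, CP, CPi, CPo) at E37. Each point is a library, its shape gives the replicate number and the bar is the layer's mean. All 12 were called lower in the IZ at an adjusted p under 0.05.

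TBR1 and EOMES, which mark deep-layer neurons and intermediate progenitors, had no tested feature. SOX2 marks neural progenitors, and LINC-SOX2-3 measured 0.390, 0.587 and 0.259 CPM in the IZ and 0 to 0.288 CPM in the plate (2.27 ± 0.68 SE, adjusted p = 0.0572). It was called by DESeq2 (adjusted p = 0.0183), as was CUX2-AS-1, from 16 counts in the IZ and 8 in the plate (adjusted p = 0.0442, and 0.0804 by edgeR). DAB1 transmits the signal of reelin in migrating neurons. Its only tested feature, LINC-DAB1-7, had 3 counts in the 3 IZ libraries and 2 in the 5 plate libraries, which is too few to compare. RELN-AS-1 and RELN-AS-4 had no count in any of the 8 libraries. RELN-AS-5 had 0 counts in the IZ and 5 in the plate, also too few to compare.

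Most other gene lists held no called feature. None was found among 96 tested features named after axon guidance genes, 70 of neuronal migration and axon adhesion, 24 of intermediate progenitors and newborn neurons, 52 of upper-layer neurons, 45 of deep-layer and subplate neurons, 48 of glutamate and GABA receptors, 65 of voltage-gated channels, 35 of interneurons or 42 of the extracellular matrix. At an unadjusted p under 0.05 these lists had, in that order, 13, 6, 2, 3, 5, 8, 4, 4 and 4 features higher in the IZ and 0, 2, 0, 2, 1, 0, 1, 1 and 0 lower, beside 9.36% of all LINC and AS features in either direction. Their medians ran from 0.11 for intermediate progenitors and newborn neurons to 0.90 for deep-layer and subplate neurons. The DESeq2 Wald test called 1 feature higher in each of the intermediate progenitor, upper-layer, deep-layer and extracellular matrix lists and 1 lower in the upper-layer list, and the replicate block gave 1 higher in the deep-layer list. Among markers of other cell types, 1 of 23 astrocyte features (LINC-SOX9-15, which is also on the radial glial list), 0 of 15 vessel features, 0 of 7 microglial features and 0 of 13 Cajal-Retzius features were called, with 0, 1 and 0 of the last 3 lists at an unadjusted p under 0.05 and 0 by DESeq2. The astrocyte, vessel and microglial lists summed to 3.46 to 6.58, 3.02 to 5.40 and 11.2 to 13.6 CPM in the IZ and to 3.72 to 6.15, 3.95 to 5.57 and 10.6 to 22.5 CPM in the plate, and so overlapped. The cadherin list held 1 of 55, LINC-CDH4-2. Over all LINC and AS features tested, 0.609% were called in either direction.

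The divisions of the plate were also compared with the IZ one at a time. Against the CPi, which borders the IZ, 135 features differed (0.503%), 96 higher in the IZ (0.357%) and 39 lower (0.145%). Against the CPo 774 differed (2.88%), 539 higher (2.01%) and 235 lower (0.875%). With the replicate block the count against the CPi was 89. The IZ libraries are the same in both, so these comparisons are not independent. For the 698 features higher in the IZ, the median log2 fold change was 1.32 against the CPi, 1.57 against the undivided CP and 2.13 against the CPo. For the 335 lower features the medians were −0.57, −0.74 and −0.75. The features were called from the average of these same differences, so the medians reuse the values behind the calls. The undivided CP is 1 library. Directly between CPi and CPo, 5 features were called (0.0186%), each higher in the CPi, and 831 had an unadjusted p under 0.05, with the same edgeR test. Counts of calls moved with single libraries. Against the CPi, 11 features were called without CPi replicate 3, 63 without CPi replicate 2, 56 without IZ replicate 1 and 53 without IZ replicate 3, and against the CPo there were 399 without CPo replicate 2, 280 without CPo replicate 3 and 479 without IZ replicate 3.

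LINC-SOX10-1 followed this order, with a difference of 1.85 from the CPi (adjusted p = 0.429) and of 5.99 from the CPo (adjusted p = 0.0011). LINC-CDH4-2 did not, with 0.99 from the CPi and 0.68 from the CPo, neither called. LINC-AAGAB-1 differed from both, by −2.86 (adjusted p = 0.016) and −3.59 (adjusted p = 0.000491), as did AAGAB-AS-1 by −2.00 (adjusted p = 0.0214) and −3.46 (adjusted p = 9.11e-06) and LINC-STT3B-54 by −4.50 (adjusted p = 0.00864) and −3.90 (adjusted p = 0.00653). CCNB1-AS-1 was called against the CPi and the CPo alike, at 2.42 (adjusted p = 0.0117) and 2.17 (adjusted p = 0.00631). The difference between the CPi and the CPo was called for none of these 6 features.

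**Figure D4:**
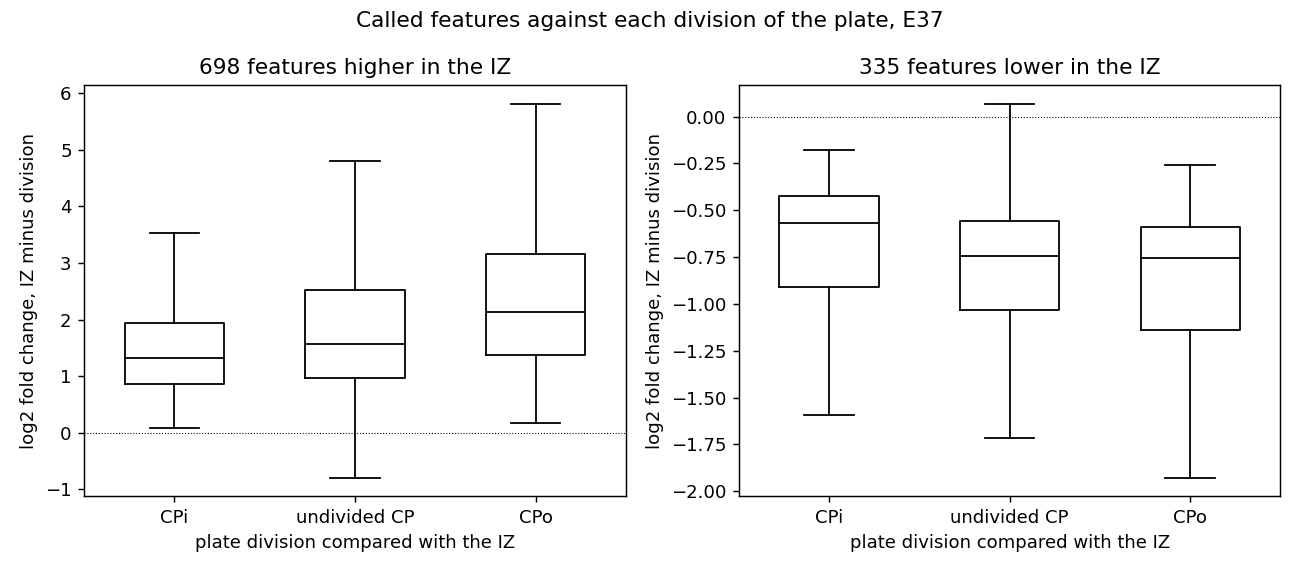
Log2 fold change of the IZ against the CPi, the undivided CP and the CPo, for the features called higher (left) and lower (right) against all 5 plate libraries. Boxes give the median and quartiles over features and whiskers reach to 1.5 times the box height; the medians of the higher features were 1.32, 1.57 and 2.13.

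The MZ, which caps the plate on the other side, was compared with the same 5 plate libraries. Of all features tested, 5019 differed (18.7%), with 2757 higher (10.3%) and 2262 lower (8.42%) in the MZ. The 698 features higher in the IZ had a median log2 fold change of 1.93 between MZ and plate, and the 335 lower features one of −0.71. These comparisons share the plate libraries, so the 2 sets of values are given side by side only. LINC-SOX1-1 averaged 1.72 CPM in the MZ, CCNB1-AS-1 1.94, APOD-AS-2 5.09 and AKAP13-AS-6 22.3 CPM, each above its mean in the IZ. The oligodendrocyte features were also called higher in the MZ than in the plate. LINC-SOX10-1 averaged 0.702 CPM in the MZ (adjusted p = 0.00317) and OLIG2-AS-1 0.603 ± 0.852 CPM (SD, adjusted p = 0.0104), below their IZ means. NKX2-2-AS-1 averaged 0.376 CPM in the MZ (adjusted p = 0.00512) and 0.311 CPM in the IZ. LINC-HES1-15 and LINC-AOX2-1 had no count in the MZ. Among the lower features, AAGAB-AS-1 averaged 16.2 CPM in the MZ and 11.3 CPM in the plate.

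The IZ was compared with the plate of E28 (CP) and of E42 (CPi and CPo) in other libraries, 2 of each layer. The E37 plate was mostly CPi and CPo, so stage and division of the plate cannot be told apart between these stages. At E28, 1464 features differed (5.45%), with 1006 higher in the IZ (3.75%) and 458 lower (1.71%), and at E42 1790 were higher (6.66%) and 1400 lower (5.21%). Of the 698 features higher at E37, 379 were also higher at E28, which is 54.3% of the E37 list and 37.7% of the E28 list. At E42, 584 were also higher, 83.7% of the E37 list and 32.6% of the E42 list. Among the 335 lower features, 64 were also lower at E28 (19.1% of the E37 list and 14.0% of the E28 list) and 291 at E42 (86.9% and 20.8%). Calls at all 3 stages were found for 348 higher and 62 lower features, and calls at E37 alone for 83 and 42. Opposite calls at E28 were found for 13 and 8, and at E42 for 0 and 1.

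The change of the difference between stages was tested as well, with the same mix of stage and division of the plate. From E28 to E37 it was called for 348 features of all tested (1.3%), among them 95 of the 698 and 38 of the 335. From E37 to E42 it was called for 6 (0.0223%), 4 moving up (0.0149%) and 2 down (0.00745%), or for 23 with the replicate block, and for 1 without IZ replicate 1, 1 without IZ replicate 2 and 12 without CP replicate 1, and for 0 with the doubted VZ library included, while 1382 had an unadjusted p under 0.05. The DESeq2 Wald test called 70.

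Several glial and progenitor features were also higher in the IZ at E42. LINC-SOX10-1 averaged 0.381 CPM in the IZ and 0 in the CP at E28, and 7.23 CPM in the IZ, 0.937 in the CPi and 0.345 in the CPo at E42 (3.66 ± 0.57 SE at E42, adjusted p = 7.34e-05). OLIG2-AS-1 had no count in the IZ or CP of E28 and averaged 2.25, 0.265 and 0.0604 CPM in the IZ, CPi and CPo of E42 (4.15 at E42, adjusted p = 0.00363). In the outer subventricular zone of E42, LINC-SOX10-1 averaged 12.5 CPM and OLIG2-AS-1 2.97 CPM, both above the IZ of E42. No test was made between these layers. LINC-SOX1-1 was called at each stage, at 5.15 at E28, 2.30 at E37 and 2.73 at E42 on the log2 scale (adjusted p = 0.000299, 0.00144 and 6.43e-05). CCNB1-AS-1 was called at each stage too, at 2.72, 1.94 and 1.53 (adjusted p = 7.14e-05, 0.000615 and 0.00177), as was LINC-CDH4-2 at 1.64, 1.05 and 2.69 (adjusted p = 0.00225, 0.00819 and 1.99e-07). For none of these 5 was a change between neighbouring stages called. For OLIG2-AS-1, without counts in either layer of E28, the change from E28 could not be estimated. That of LINC-SOX10-1 (−2.76 ± 1.90 SE) was poorly estimated, as the CP of E28 had no count.

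LINC-PAPOLG-4 and LINC-AAGAB-1 changed from E28 to E37. LINC-PAPOLG-4 averaged 0.409 CPM in the IZ and 0.865 CPM in the CP at E28, without a called difference, and its difference moved up by 4.47 (adjusted p = 0.0338). LINC-AAGAB-1 averaged 1.36 and 1.03 CPM in the IZ and CP of E28, near the IZ level of E37, and its difference moved down by 3.82 log2 units (log2 change −3.82, adjusted p = 0.0176). AAGAB-AS-1 had 1.77 and 1.64 CPM there, and the change in its difference was called as well (adjusted p = 0.00818). The plate of E28 was undivided, so these changes mix stage with division of the plate. Against the single undivided CP library of E37, the difference was 1.57 for LINC-PAPOLG-4. It was −4.02 for LINC-AAGAB-1 and −3.38 for AAGAB-AS-1. At E42 LINC-AAGAB-1 averaged 2.89 CPM in the IZ, 7.47 in the CPi and 20.4 in the CPo. ADD2-AS-2, LINC-C4ORF32-2 and LINC-PRMT8-1 were called lower at all 3 stages. SLITRK3-AS-1 was lower at E37 and E42, with 2.09 and 1.72 CPM in the IZ and CP of E28, but the change from E28 missed the threshold (adjusted p = 0.0827).

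**Figure D5:**
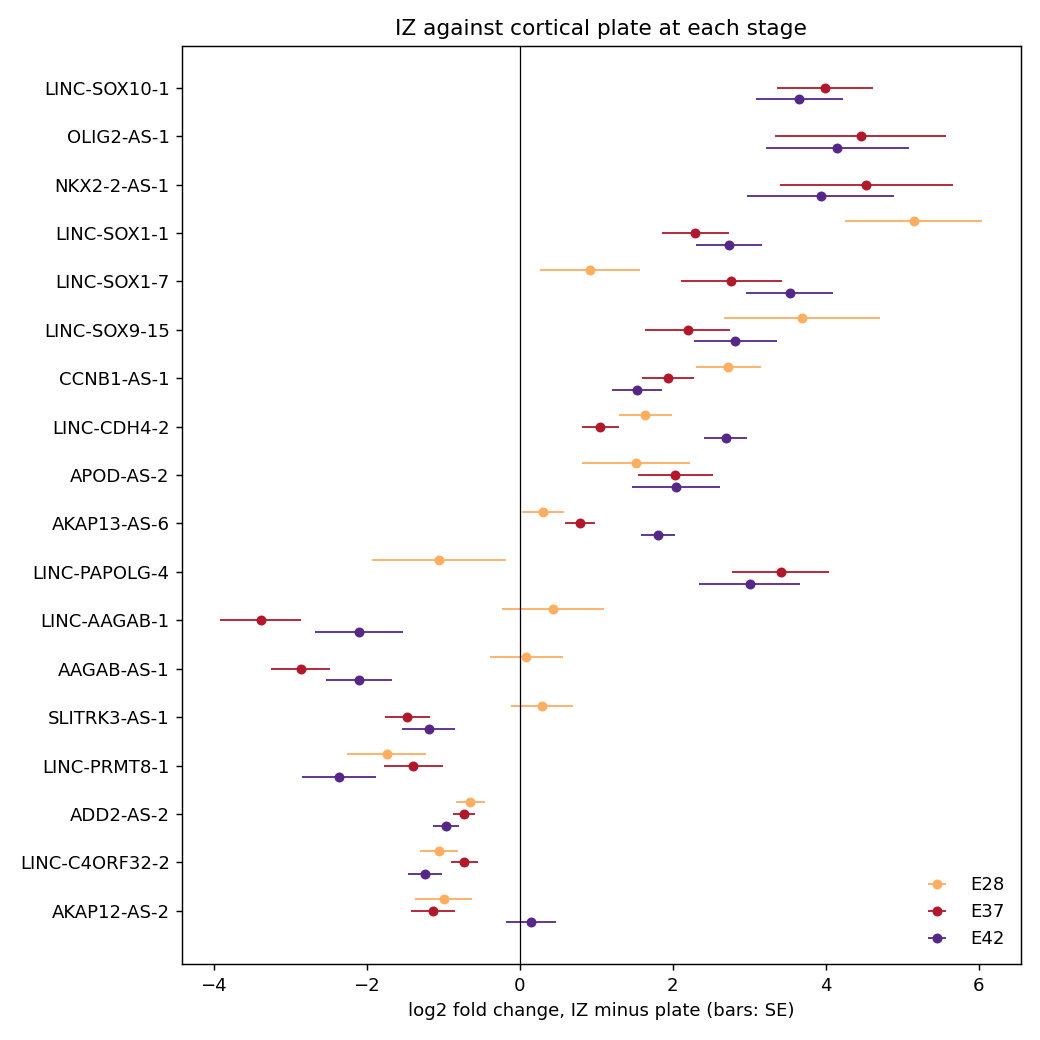
Log2 fold change of the IZ against the plate at E28, E37 and E42 for 18 LINC and AS features, with bars for the standard error. The plate was the CP at E28, the CP, CPi and CPo at E37, and the CPi and CPo at E42. An E28 value is left out where the IZ or the CP of E28 had no count. LINC-AAGAB-1 stood at 0.44 at E28, −3.38 at E37 and −2.09 at E42.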

How the data were processed

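The authors mapped reads with HISAT to the tree shrew genome (TS_3.0 annotation), counted them with HTSeq, and deposited raw integer counts per feature, not normalized. Lines starting with __ were removed. CPM, fold changes and tests were computed here in R 4.3.3. One library was left out, VZ replicate 2 labelled E42, because it duplicated VZ replicate 2 labelled E28 count for count. The others entered 1 fit (35 libraries, 18 groups, 17 residual degrees of freedom) in edgeR 4.0.16: filterByExpr (minimum count 10), TMM, robust quasi-likelihood test, Benjamini-Hochberg adjustment over all features, threshold 0.05. The scripts were tested on simulated data. Counts came to between 20202632 and 31756620 per compared library. Replicate numbers were taken to pair the E37 libraries because their deviations from group means correlated in 6 of 6 pairs of layers (0.147 to 0.273). Each pair of layers rests on 2 shared numbers, and the pairs share libraries, so the correlations are not independent. The pairing of IZ 1 with CP 1 could not be checked. The main test did not use the pairing, which entered only in the replicate block. The labels do not say what the number marks.

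Gene symbols were matched to RefSeq: 5491 of 6348 tested symbols (86.5%) were found, and 0 TSDBGID identifiers. Named features were the LINC and AS features with the largest called differences at a mean of at least 1 CPM without overlap (up to 12 per direction, 1 per symbol), up to 3 called features per direction of each of 18 gene lists, those of 10 layer marker genes, 2 TSDBGID features per direction at 5 CPM or more, and any symbol with at least 4 tested and 3 called features, of which there were 0. Some features that met the rule are not reported here. Members and lists were chosen with earlier results of these data known. Alternatives were the 36-library fit, no filter, DESeq2 1.42.0 (Wald test, and its size factors in edgeR), only the 10 E37 libraries, the plate as 1 group, the replicate block, a log2 fold change above 1, leaving out each library and, added after seeing the data, thinning the 8 libraries to 1 depth. Plots used matplotlib.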

Additional observations from a re-analysis of the deposited data

Results flagged for a closer look

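The difference between IZ and plate changed from E28 to E37 in a test of that change for 4 of the features followed. The plate of E28 was undivided, while that of E37 was mostly CPi and CPo. The log2 change was 4.47 for LINC-PAPOLG-4 (adjusted p = 0.0338), −3.82 for LINC-AAGAB-1 (adjusted p = 0.0176), −2.95 for AAGAB-AS-1 (adjusted p = 0.00818) and 3.52 for TSDBGID.23730 (adjusted p = 0.00353).

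Of 51 sets of 5 plate values, 7 had 1 library far from the other 4 by Dixon's ratio. No chance rate can be set beside this, because the 5 libraries come from different divisions of the plate and several values rest on few counts. The undivided CP stood above the other plate libraries for CCNB1-AS-1 at 0.643 CPM, for LINC-HES1-15 at 0.0357 CPM and for CUX2-AS-1 at 0.214 CPM. Replicate 2 of the CPi stood above them for CNTNAP5-AS-2 at 0.180 CPM and for LINC-SOX2-3 and LINC-ZEB1-2 at 0.288 CPM each. Replicate 2 of the CPo had 3.84% of its lines aligned to more than 1 place.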

How the results depend on the processing

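No followed feature changed direction, and 12 of 38 called ones were called in every alternative. The DESeq2 Wald test called 1174 features higher overall (698 by edgeR), 82 LINC and AS features higher (48) and 35 lower (18), 437 against the CPi (135), 1357 against the CPo (774), 714 changing from E28 to E37 (348) and 70 from E37 to E42 (6), and 19 list features (12). Without a filter on low counts these were 76 LINC and AS higher, 375 against the CPi, 655 and 96 for the changes. The doubted VZ library, when included, gave 171 lower features (335), 25 against the CPi, 458 against the CPo, 184 and 0 for the changes. With only the E37 libraries there were 141 lower, 17 LINC and AS higher and 27 against the CPi. The plate as 1 group gave 20 LINC and AS higher and 202 changing from E28 to E37. DESeq2 size factors gave 180 lower, and a log2 fold change above 1 gave 87. The replicate block gave 559 lower, 89 against the CPi and 23 changing from E37 to E42, and moved no other count of calls by over 1.5 times. The causes were not tested.

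Leaving out 1 library gave 472 to 772 higher and 75 to 449 lower features, 26 to 50 LINC and AS features higher and 6 to 19 lower, 11 to 191 against the CPi, 280 to 803 against the CPo, and 270 to 364 and 1 to 12 for the changes. LINC and AS features higher fell to 26 without CPo replicate 2, 27 without IZ replicate 3, 27 without CP replicate 1, 28 without CPo replicate 3 and 30 without IZ replicate 1, and those lower to 6, 8, 10 and 11 without IZ replicate 3, IZ replicate 1, CPo replicate 2 and IZ replicate 2. In shares (IZ minus plate, percentage points), lines without a feature ranged from −0.207 to 0.541, of low quality from −0.135 to 0.312, not aligned from −0.640 to 4.17 and not unique from −0.386 to 0.114. The LINC share of counts was 0.0254 points higher in the IZ, but −1.87 points as a share of LINC and AS counts. Depth limits the rare features: a count of 3 or fewer in the plate stood behind 12 of the 48.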
